A study of Mus musculus with 8 samples.

Results

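Expression of 8 genes of the podocyte, the epithelial cell that covers the glomerular capillaries, was examined in kidney RNA of diabetic mice given vehicle or rFGF4, a truncated human fibroblast growth factor 4 made to be non-mitogenic. The genes were *Nphs1*, *Wt1*, *Podxl*, *Synpo*, *Plce1*, *Ptpro*, *Cd2ap* and *Magi2*, taken by symbol from the 55401 genes of the expression table, where each symbol had 1 row. Kidney RNA was sequenced from 8 male mice, 4 in each group, with 1 library per mouse, and which part of the kidney was taken is not given for these libraries (the study names the renal cortex for its PCR measurements). The sample labels call the control group a db/db model and the other group rFGF4 treatment. The db/db mouse lacks a working leptin receptor and becomes obese and diabetic. The text of the study instead describes the sequenced animals as diabetic after streptozotocin, a toxin of pancreatic beta cells, and the values do not settle which model was used. In the treatment scheme, which is given alike for both models, rFGF4 at 1 mg/kg or PBS as the vehicle was injected into the peritoneum on alternate days over 8 weeks, and db/db mice were 12 weeks old at the first injection. The labels and the study name no other difference between the groups, and no library of non-diabetic mice was analysed here. Mice are named by the numbers of the labels, which are 1, 2, 3 and 5 for rFGF4 and 2, 3, 4 and 5 for vehicle. Each value is an FPKM, a number of sequenced fragments corrected for exon length and library size. Levels can thus be compared between genes of a library. Between mice the scale was less even, with a total of 389407 FPKM in rFGF4 mouse 1 and 552604 in vehicle mouse 2. Some results are for this reason also given after the libraries were rescaled. In the first principal component of all tested genes, which held 54.45% of the variance, rFGF4 mouse 1 and vehicle mouse 5 stood together at one end, and values without one or both are given beside the results they move most. The kidney and podocyte markers were present in every library, with *Umod* of the thick ascending limb at 654 FPKM or more, *Nphs1* at 4.02 or more and *Podxl* at 29.1 or more.

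Podocytes send out interlocking foot processes, and the gaps between them are bridged by the slit diaphragm, a cell junction that holds back protein from the urine. Nephrin and its relatives form the bridge, adaptor proteins tie it to the actin of the foot process, and a negatively charged surface coat keeps neighbouring processes apart. Mutations in many of these genes cause nephrotic syndrome, and loss of podocytes is a feature of diabetic kidney disease. Podocytes are a small part of the cells of the kidney. In such bulk RNA, fewer podocytes and less RNA per podocyte cannot be told apart. The question put to the data was whether the podocyte genes differed between rFGF4-treated and vehicle-treated mice.

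On the GRCm38 build, *Nphs1* (ENSMUSG00000006649) spans chromosome 7 from 30458315 to 30487223, and *Podxl* (ENSMUSG00000025608) chromosome 6 from 31519488 to 31563981. *Ptpro* (ENSMUSG00000030223) lies on the same chromosome as *Podxl*, from 137252319 to 137463233. *Wt1* (ENSMUSG00000016458) runs from 105126529 to 105173616 on chromosome 2, *Cd2ap* (ENSMUSG00000061665) from 42792951 to 42876665 on chromosome 17, and *Plce1* (ENSMUSG00000024998) from 38481109 to 38785030 on chromosome 19. *Magi2* (ENSMUSG00000040003) lies on chromosome 5 from 19227036 to 20704792. The exons of *Nphs1* overlap the antisense gene *Nphs1os* over 597 bases, or 9.02% of its exonic sequence, and those of *Magi2* overlap another gene on the same strand over 203 bases (1.79%). For *Nphs1*, whose libraries were not stated to keep the strand, a small part of the signal could come from the antisense gene. Apart from a pseudogene within *Nphs1*, no other exon overlap was annotated for the 8 genes.

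RefSeq promoter windows (GRCm38.p6, from 250 bases before to 50 bases after the start site) were found for 5 of the 8 genes, namely *Nphs1*, *Ptpro*, *Magi2*, *Cd2ap* and *Plce1*, with 2 windows for *Magi2*. They were searched on both strands for GCGTGGG, a core of the site bound by WT1, itself one of the 8 genes, for the E-box CAGCTG, to which basic helix-loop-helix factors such as TCF21 bind, and for TGTTTAC, the site of forkhead factors. The windows of *Nphs1* (chr7:30459808-30460107, plus strand), *Ptpro* (chr6:137252049-137252348, plus strand) and *Magi2* (chr5:19226796-19227095, plus strand) are shown because these are a slit diaphragm, a surface and a scaffold gene that were correlated across mice to different degrees. Capitals mark matches to the motifs.
Nphs1: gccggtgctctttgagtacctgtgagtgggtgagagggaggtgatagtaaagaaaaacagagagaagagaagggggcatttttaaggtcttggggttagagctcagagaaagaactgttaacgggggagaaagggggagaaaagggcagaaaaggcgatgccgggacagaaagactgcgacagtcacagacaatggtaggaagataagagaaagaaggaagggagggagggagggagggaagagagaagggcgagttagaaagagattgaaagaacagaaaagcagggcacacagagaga
Ptpro: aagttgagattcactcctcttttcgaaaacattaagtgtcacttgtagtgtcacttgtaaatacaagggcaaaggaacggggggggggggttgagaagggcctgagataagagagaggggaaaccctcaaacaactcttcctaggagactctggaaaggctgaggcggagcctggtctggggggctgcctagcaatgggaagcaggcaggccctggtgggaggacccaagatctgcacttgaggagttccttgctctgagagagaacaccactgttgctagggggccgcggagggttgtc
Magi2: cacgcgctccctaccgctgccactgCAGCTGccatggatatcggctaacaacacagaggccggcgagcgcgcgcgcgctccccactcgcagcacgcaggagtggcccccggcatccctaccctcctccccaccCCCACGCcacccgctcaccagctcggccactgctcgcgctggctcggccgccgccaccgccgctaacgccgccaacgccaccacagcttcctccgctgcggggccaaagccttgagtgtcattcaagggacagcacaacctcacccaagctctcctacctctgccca
The *Magi2* window held GCGTGGG on the minus strand, with its first base at position -117 from the start site, where the printed strand reads CCCACGC, and CAGCTG at position -225. No motif was in the windows of *Nphs1*, *Ptpro* or *Plce1* or in the second window of *Magi2*, and that of *Cd2ap* held 1 CAGCTG. Of 32851 promoter windows, 5.04% held GCGTGGG, 16.3% CAGCTG and 3.65% TGTTTAC. The windows also differed in base composition, with a G and C content of 49.7% for *Nphs1*, 54.7% for *Ptpro* and 69.3% for *Magi2*. A match describes the letters of a window and not binding.

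Of the 8 genes, *Synpo* alone passed an unadjusted p of 0.05 between the groups, and it was higher in rFGF4-treated mice. For the others, the difference between the groups did not pass the test against the spread between mice. Genes entered the test when 4 or more libraries reached 0.5 FPKM, which 7 of the 8 genes did. *Plce1* did not, with 1 library at that level. In limma's moderated test on log2(FPKM + 1), 1 of these 7 genes had an unadjusted p under 0.05, in the higher direction, beside 4.62% of the 15150 genes tested, or 3.56% counting only genes that were higher. *Synpo* also passed the study's own threshold, a fold change of 1.5 together with an unadjusted p under 0.05, as 1.52% of all genes did, 1.09% upward and 0.436% downward. Of all tested genes, 0 had a Benjamini-Hochberg adjusted p under 0.05 in limma (smallest 0.918), against 700 at an unadjusted p under 0.05. The log2 fold change was above 0 for 5 of the 7 tested podocyte genes and for 67.1% of all genes, and the medians were 0.26 and 0.086. Without rFGF4 mouse 1 it was above 0 for 5 of the 7 genes again and for 52.2% of all genes, with medians of 0.19 and 0.010. Without vehicle mouse 5 it was above 0 for 7 of the 7 genes and 72.3% of all genes, with medians of 0.41 and 0.15. The median of all genes was -0.011 with the libraries at a common median ratio and 0.16 without mitochondrial transcripts. In none of the 8 genes did the 4 rFGF4-treated mice all lie above or all below the 4 vehicle-treated mice, a separation that 2.66% of all genes showed upward and 0.667% downward.

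**Figure D1:**
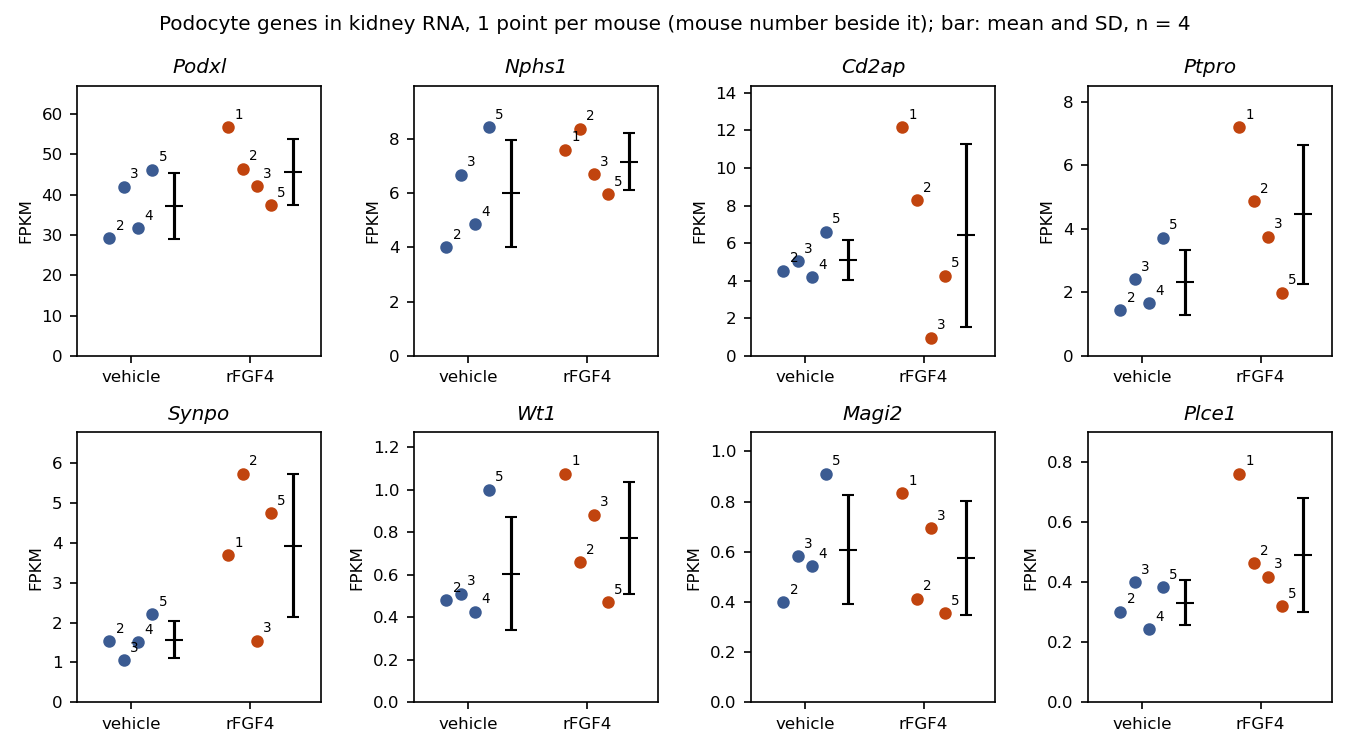
FPKM of the 8 podocyte genes in each vehicle-treated (blue) and rFGF4-treated (orange) mouse, with the mouse number beside each point and the group mean and SD (n = 4) as a bar. The groups overlap in every panel, and 3 of the 4 rFGF4-treated mice lie above all vehicle-treated mice for *Synpo*, *Ptpro* and *Plce1*.

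*Synpo* encodes synaptopodin, an actin-associated protein of the foot process, and the gene (ENSMUSG00000043079) lies on chromosome 18 from 60593973 to 60660142. Its level was 3.69, 5.73, 1.55 and 4.74 FPKM in rFGF4 mice 1, 2, 3 and 5. In vehicle mice 2, 3, 4 and 5 it was 1.54, 1.05, 1.505 and 2.20 FPKM. rFGF4 mice 1, 2 and 5 thus stood above every vehicle-treated mouse, whereas rFGF4 mouse 3 was within their range. The means were 3.93 ± 1.79 FPKM (SD, n = 4) with rFGF4 and 1.57 ± 0.475 (SD, n = 4) with vehicle. On the log2(FPKM + 1) scale the fold change was 0.87 (standard error 0.30, 95% interval 0.18 to 1.55). The limma p was 0.0195 (adjusted p = 0.918) and the two-sided exact permutation p was 0.0571, where the smallest for 4 mice against 4 is 0.0286. Without rFGF4 mouse 3, the lowest of its group, the log2 fold change was 1.15. It was 0.69 without rFGF4 mouse 2, 0.76 without rFGF4 mouse 5 and 0.76 without vehicle mouse 3, and in each of these fits the unadjusted limma p was above 0.05 (0.0540, 0.0531 and 0.0542). Without rFGF4 mouse 1 and vehicle mouse 5 together it was 0.97.

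*Plce1*, which encodes phospholipase C epsilon, a signalling enzyme linked to inherited nephrotic syndrome, had the lowest mean of the 8 genes. It was at 0.760, 0.463, 0.418 and 0.319 FPKM in rFGF4 mice 1, 2, 3 and 5, and at 0.301, 0.400, 0.243 and 0.383 FPKM in vehicle mice 2, 3, 4 and 5. rFGF4 mice 1, 2 and 3 were above all vehicle-treated mice, mouse 1 by the widest margin. Fitted without the filter on low values, its log2 fold change was 0.15 (standard error 0.10, 95% interval -0.078 to 0.39), and the exact permutation test gave p = 0.143.

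*Ptpro* encodes GLEPP1, a receptor-type tyrosine phosphatase on the free surface of the foot process. The rFGF4 mice had 7.20, 4.87, 3.76 and 1.99 FPKM (mice 1, 2, 3 and 5). Vehicle mice 2, 3, 4 and 5 had 1.45, 2.41, 1.67 and 3.72 FPKM. The treated group spanned a wide range, from above all vehicle-treated mice in mice 1, 2 and 3, the last by a narrow margin, to below 2 of them in mouse 5. Group means were 4.46 ± 2.18 (SD, n = 4) and 2.31 ± 1.03 FPKM (SD, n = 4). The log2 fold change was 0.68 (standard error 0.33, 95% interval -0.083 to 1.43, limma p = 0.0742, adjusted p = 0.918), with an exact permutation p of 0.114. With rFGF4 mouse 5 left out it was 0.93, with vehicle mouse 5 left out 0.86, and the unadjusted limma p was then under 0.05 in both. It was 0.45 without rFGF4 mouse 1, where it did not pass, and 0.63 without rFGF4 mouse 1 and vehicle mouse 5 together.

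*Podxl* encodes podocalyxin, the sialylated coat protein of the foot process, which endothelium also carries. It was the most abundant of the 8 genes. Its FPKM was 56.8, 46.5, 42.2 and 37.5 in rFGF4 mice 1, 2, 3 and 5, and 29.1, 42.0, 31.7 and 46.2 in vehicle mice 2, 3, 4 and 5. Vehicle mice 3 and 5 lay among the treated mice, and vehicle mice 2 and 4 below all of them. The means were 45.7 ± 8.23 (SD, n = 4) and 37.3 ± 8.15 FPKM (SD, n = 4), and the log2 fold change was 0.30 (standard error 0.19, 95% interval -0.14 to 0.73). The exact permutation p was 0.171, and the log2 fold change was 0.19 without rFGF4 mouse 1 and also 0.19 without vehicle mouse 2.

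*Nphs1* encodes nephrin, the immunoglobulin-type protein that forms the slit diaphragm. Its FPKM was 7.60, 8.37, 6.70 and 5.95 in rFGF4 mice 1, 2, 3 and 5, and 4.02, 6.68, 4.85 and 8.43 in vehicle mice 2, 3, 4 and 5. The highest value of all was in vehicle mouse 5 and the lowest in vehicle mouse 2, so the vehicle group enclosed the treated one. The group means were 7.15 ± 1.06 (SD, n = 4) and 5.99 ± 1.97 FPKM (SD, n = 4). The log2 fold change of 0.26 (standard error 0.21) had a 95% interval from -0.23 to 0.74, with an exact permutation p of 0.343. It ran from 0.11 without vehicle mouse 2 to 0.41 without vehicle mouse 5, and was 0.38 without rFGF4 mouse 1 and vehicle mouse 5 together.

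The slit diaphragm adaptors *Cd2ap* and *Magi2* had differences near 0, far smaller than the spread between mice. *Cd2ap* encodes CD2-associated protein, which links nephrin to actin and is also present in many other cell types. It had 12.2, 8.29, 0.975 and 4.27 FPKM in rFGF4 mice 1, 2, 3 and 5, and 4.53, 5.05, 4.20 and 6.61 in vehicle mice 2, 3, 4 and 5. Its highest and lowest levels were both in treated mice and differed 12.5-fold, the widest range of the 8 genes. The log2 fold change was -0.015 (standard error 0.53), with a 95% interval from -1.22 to 1.19 that leaves room for a large change either way, and it was 0.52 without rFGF4 mouse 3 and -0.40 without rFGF4 mouse 1. *Magi2*, which encodes a scaffold protein of the slit diaphragm that is abundant in brain as well, had 0.833, 0.413, 0.695 and 0.357 FPKM in rFGF4 mice 1, 2, 3 and 5. Vehicle mice 2, 3, 4 and 5 had 0.399, 0.584, 0.543 and 0.912 FPKM. The groups covered almost the same range, and the log2 fold change was -0.033 (standard error 0.15, 95% interval -0.37 to 0.30, exact permutation p = 0.857), and -0.11 without rFGF4 mouse 1.

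*Wt1* encodes the zinc-finger transcription factor that maintains podocyte identity, and parietal epithelial cells of the glomerulus also express it. The treated mice had 1.08, 0.659, 0.883 and 0.471 FPKM (mice 1, 2, 3 and 5), and vehicle mice 2, 3, 4 and 5 had 0.481, 0.511, 0.427 and 1.0 FPKM. Vehicle mouse 5 stood apart from the 3 others, at about the level of rFGF4 mouse 1. The log2 fold change was 0.14 (standard error 0.16, 95% interval -0.22 to 0.51), with an exact permutation p of 0.343. It was 0.26 without vehicle mouse 5, 0.065 without rFGF4 mouse 1 and 0.093 without vehicle mouse 4, so single mice set its size.

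**Figure D2:**
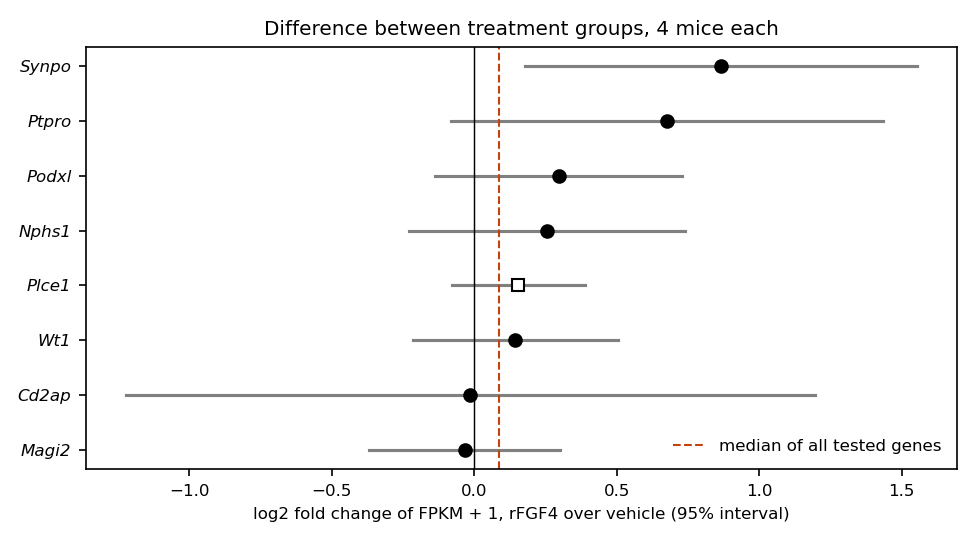
Log2 fold change of FPKM + 1 (rFGF4 over vehicle) of the 8 podocyte genes with 95% intervals from limma, 4 mice per group. *Plce1* (open square) was fitted without the filter, the dashed line is the median of all tested genes (0.086), and the interval of *Synpo* alone lies wholly above 0.

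The table gives no counts, but the value of a single fragment could be read from genes with 1 transcript, and it gave an estimated depth of 17600000 to 21900000 fragments per library. With the longest transcript of each gene, at most 25.7 to 65.7 fragments per library lay behind *Wt1*, 41.4 to 122 behind *Magi2* and 49.1 to 142 behind *Plce1*. For *Wt1* the counting error alone was thus at least 12.3% to 19.7% of the value. *Nphs1* rested on at most 361 to 789 fragments and *Podxl* on 3057 to 6032. In order of the mean over all 8 mice the levels were *Podxl* at 41.5 FPKM, *Nphs1* at 6.57, *Cd2ap* at 5.76, *Ptpro* at 3.38, *Synpo* at 2.75, *Wt1* at 0.689, *Magi2* at 0.592 and *Plce1* at 0.411. *Podxl* exceeded *Nphs1* in all 8 mice by 2.49 ± 0.134 on the log2(FPKM + 1) scale (SD, n = 8), and *Synpo* exceeded *Wt1* in all 8 by 1.04 ± 0.633. *Nphs1* and *Cd2ap* (6 of 8 mice in this order), *Cd2ap* and *Ptpro* (7 of 8), *Ptpro* and *Synpo* (5 of 8) and *Wt1* and *Magi2* (6 of 8) were closer to each other than the SD of their difference between mice. *Magi2* and *Plce1* differed by about that SD, in this order in 7 of 8 mice.

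Most of the 8 genes rose and fell together from mouse to mouse, whichever group the mouse was in. Over the 8 libraries, Pearson's r of log2(FPKM + 1) was above 0 for 27 of the 28 gene pairs, with a median of 0.53, and above 0.8 for 28.6% of them. Over the 114753675 pairs of all tested genes the median was 0.21, with 62% of pairs above 0 and 9.01% above 0.8, so strong correlations were common in these libraries. In an exact permutation test, 9 pairs had a Benjamini-Hochberg adjusted p under 0.05 over the 28 pairs. They joined *Podxl*, *Ptpro*, *Plce1*, *Nphs1*, *Wt1* and *Magi2*, and no pair with *Synpo* or *Cd2ap* was among them. The closest pair was *Podxl* and *Ptpro*, with r = 0.95 (exact permutation p = 0.000223, adjusted 0.00590) and Spearman's rho = 0.98 (exact permutation p = 0.000397, adjusted 0.0111), and r was 0.89 without vehicle mouse 2 and rFGF4 mouse 1. For *Nphs1* and *Podxl* r was 0.91 (exact permutation p = 0.00169, adjusted 0.0118) and rho 0.90 (exact permutation p = 0.00456, adjusted 0.0319), but r was 0.68 without vehicle mice 2 and 4, the farthest from the median. Taken as deviations from the group means, the 28 pairs had a median r of 0.65. When all libraries were brought to a common median ratio over the tested genes, however, the median r of the pairs was 0.30, and 0 pairs had an adjusted p under 0.05 (smallest 0.113 in the exact permutation test, 4 pairs at an unadjusted p under 0.05). *Podxl* and *Nphs1* had r = 0.85 after this scaling, but 0.12 without vehicle mice 2 and 4, on which the relation rested. *Plce1* and *Ptpro* also had r = 0.85 (exact permutation p = 0.00523, adjusted 0.113; rho = 0.93), and 0.73 without rFGF4 mouse 1 and vehicle mouse 4. From the values as deposited, 6 pairs passed without vehicle mouse 5, and 2 to 4 without rFGF4 mouse 1 or 5 or vehicle mouse 2, 3 or 4.

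**Figure D3:**
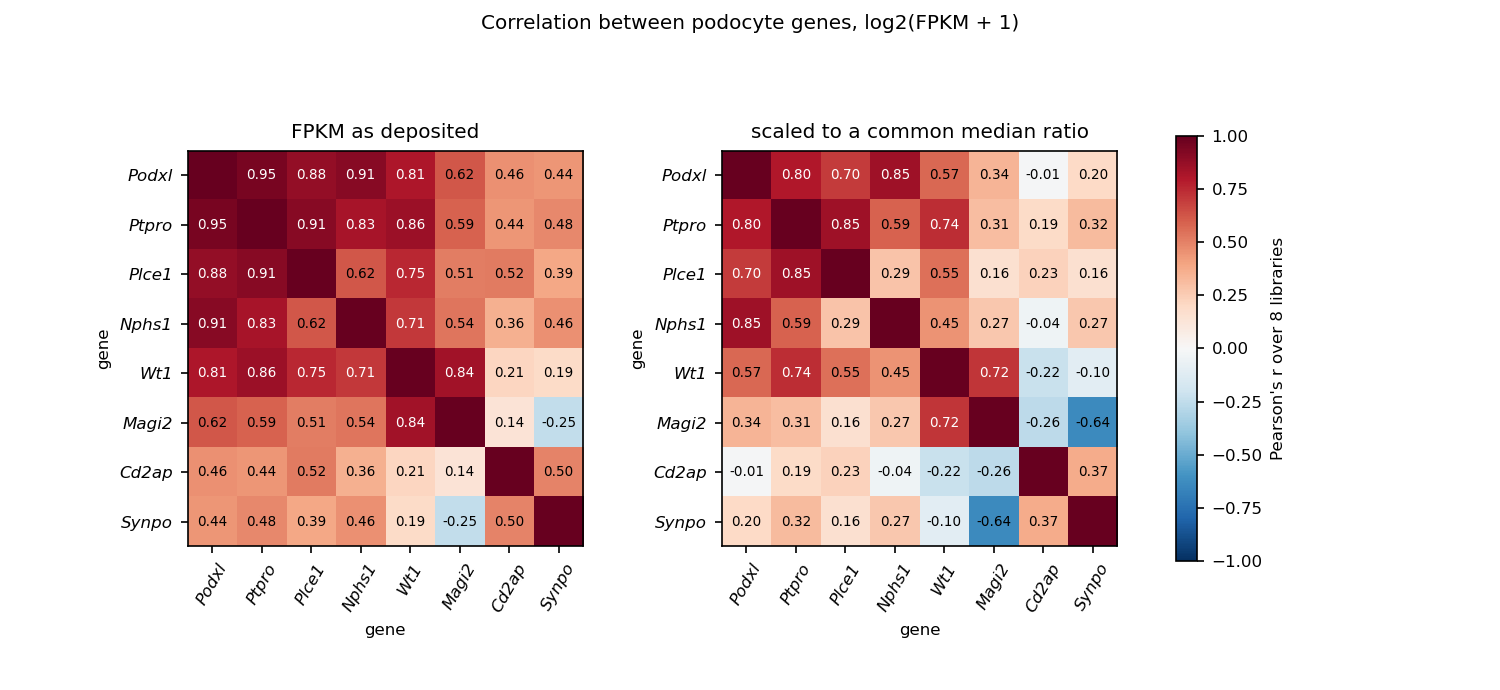
Pearson's r between podocyte genes over the 8 libraries on log2(FPKM + 1), from the FPKM as deposited (left) and after scaling the libraries to a common median ratio (right). On the left the block from *Podxl* to *Magi2* is positive throughout, up to 0.95 for *Podxl* with *Ptpro*, and on the right most values are smaller.

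The levels also followed the share of FPKM that came from mitochondrially encoded transcripts, which ran from 19.0% to 38.4% of a library. It was 27.4% ± 7.25 (SD, n = 4) in rFGF4-treated and 33.5% ± 6.33 (SD, n = 4) in vehicle-treated mice. rFGF4 mouse 1 had the smallest share and the highest value of 5 of the 8 genes, and vehicle mouse 2 had the largest share and the lowest value of 3. For *Ptpro* the correlation with this share was r = -0.97 (exact permutation p = 0.000124, adjusted over the 8 genes 0.000992; rho = -0.93, exact permutation p = 0.00223, adjusted 0.00595), and r was -0.99 without rFGF4 mouse 1 and vehicle mouse 5, the libraries farthest from the median. For *Podxl* r was -0.93 (exact permutation p = 0.000248, adjusted 0.000992) and rho -0.98 (exact permutation p = 0.000397, adjusted 0.00317), with r = -0.87 without the same libraries. *Nphs1*, *Wt1* and *Plce1* had r = -0.85, -0.89 and -0.86 (adjusted exact permutation p = 0.0115, 0.00992 and 0.00516) and rho = -0.93, -0.90 and -0.83 (adjusted exact permutation p = 0.00595, 0.00913 and 0.0246), with r = -0.90, -0.73 and -0.88 without those libraries. *Synpo* stood out from these with r = -0.47 (exact permutation p = 0.232; rho = -0.50, exact permutation p = 0.216), and *Cd2ap* and *Magi2* had r = -0.53 and -0.66 with adjusted p-values above 0.05 (0.206 and 0.106, exact permutation) and r = -0.084 and -0.17 without those libraries. When the mitochondrial transcripts were taken out and the remaining FPKM were scaled to equal sums, r was -0.96 for *Ptpro*, -0.93 for *Podxl* and -0.89 for *Nphs1*. After the common median ratio it was -0.95, -0.69 and -0.53. The part of the mitochondrial share in the differences between the groups was not tested. How many of all tested genes followed this share as closely was not counted. Of the 15143 other tested genes, 28.1% had an r above 0.8 with the mean standardised level of the tested podocyte genes. The relation to the share therefore cannot be called particular to the podocyte genes.

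**Figure D4:**
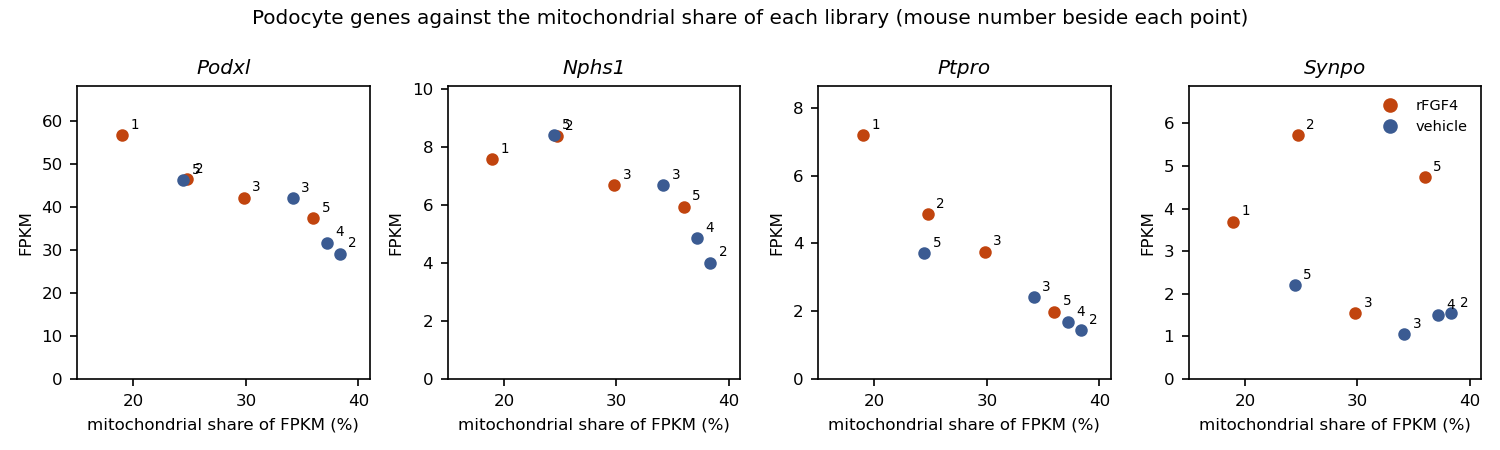
FPKM of 4 podocyte genes (y axis, linear) against the percentage of a library's FPKM from mitochondrially encoded transcripts (x axis), with 1 point per mouse in orange (rFGF4) or blue (vehicle). *Podxl*, *Nphs1* and *Ptpro* fall as the share grows in both groups, and for *Synpo* rFGF4 mouse 5 lies high at a share of 36.0%.

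Scaling changed the sizes of the differences of *Synpo*, *Ptpro*, *Podxl* and *Nphs1* but not their order. With a common median ratio, the log2 fold change was 0.78 for *Synpo*, 0.58 for *Ptpro*, 0.17 for *Podxl* and 0.15 for *Nphs1*. With mitochondrial transcripts removed and equal sums it was 0.93, 0.75, 0.39 and 0.34, and *Synpo* was the single one with an unadjusted limma p under 0.05 in both, as were 4.69% and 7.49% of all genes. *Cd2ap* and *Magi2*, at -0.14 and -0.080 with the first scaling, turned to 0.068 and 0.0081 with the second. The split of all genes past the study's threshold moved too, from 165 higher and 66 lower to 93 and 81 with the common median ratio, and to 280 and 39 without mitochondrial transcripts. Each gene was also expressed relative to the geometric mean of *Nphs1* and *Podxl* in the same library, a comparison chosen after the values were seen. *Synpo* was 17.8%, 29.0%, 9.22% and 31.8% of this level in rFGF4 mice 1, 2, 3 and 5, and 14.2%, 6.28%, 12.1% and 11.2% in vehicle mice 2, 3, 4 and 5. rFGF4 mice 1, 2 and 5 again exceeded every vehicle-treated mouse. The log2 difference, taken without a pseudocount, was 0.91, against 1.17 for the FPKM themselves at a pseudocount of 0.1. The relative level did not pass the exact permutation test (p = 0.143), which the FPKM did not pass either. For *Ptpro* the relative level was 23.8% ± 8.78 (SD, n = 4) with rFGF4 and 15.03% ± 2.60 (SD, n = 4) with vehicle (exact permutation p = 0.143). The log2 difference was 0.070 for *Wt1*, 0.21 for *Plce1*, -0.45 for *Cd2ap* and -0.41 for *Magi2*. Their exact permutation p-values were 0.657, 0.429, 0.8 and 0.257.

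Other podocyte genes were set beside these from 5 lists of 59 genes, of which 51 were tested. Of the 51, 0 were higher and 2 were lower at an unadjusted p under 0.05 in limma, *Ildr2* and *Npnt*, beside 3.56% and 1.06% of all genes, and 0 at an adjusted p under 0.05. Without mitochondrial transcripts the split turned to 2 higher and 1 lower, beside 6.93% and 0.562% of all genes. Their median log2 fold change was 0.17, against 0.086 for all genes. *Ildr2*, listed as a podocyte-enriched membrane protein, had 6.53, 2.12, 0.907 and 1.27 FPKM in rFGF4 mice 1, 2, 3 and 5, and 6.04, 5.98, 7.41 and 6.89 in vehicle mice 2, 3, 4 and 5. It was thus low in 3 treated mice and at the vehicle level in rFGF4 mouse 1 (log2 fold change -1.25, standard error 0.39, limma p = 0.0120, adjusted p = 0.918, exact permutation p = 0.0857). *Npnt* encodes nephronectin, a matrix ligand of integrins in the glomerular basement membrane, and was at 18.4 ± 2.68 FPKM (SD, n = 4) with rFGF4 and 22.7 ± 1.03 (SD, n = 4) with vehicle. Its log2 fold change was -0.30 (standard error 0.12, limma p = 0.0401, adjusted p = 0.918, exact permutation p = 0.0571). It no longer passed without rFGF4 mouse 1, without vehicle mouse 5 or without both. *Ildr2* and *Npnt* went the other way from *Synpo*.

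By role, the list of slit diaphragm and junction genes had 10 of 13 genes tested, with a median log2 fold change of 0.31. Its most abundant genes were *Iqgap1*, *Tjp1* and *Fat1*, for a scaffold, a tight junction protein and a large protocadherin, all present in many epithelia, at 0.20, 0.42 and 0.47. *Kirrel2* and *Trpc6*, a nephrin relative and a slit diaphragm channel, stayed under 0.5 FPKM in every library. The transcription factors (6 of 6 tested) had a median of 0.12, with *Foxc1* at 0.17 (standard error 0.18), *Tcf21* at -0.0082 and *Tead1* at -0.14. *Tcf21* is also a gene of stromal cells. It was at 5.45 to 9.94 FPKM with rFGF4, at 3.95 to 4.88 in vehicle mice 2, 3 and 4, and at 23.8 in vehicle mouse 5. *Tead1* was at 1.28 FPKM in rFGF4 mouse 1, 3.39 to 4.96 in the other treated mice and 2.98 to 4.40 with vehicle. Genes of the actin cytoskeleton (12 of 13 tested) had a median of 0.29, led in abundance by *Slc9a3r1*, *Ezr* and *Arhgdia* with log2 fold changes of 0.029, 0.30 and 0.32, and these 3 are expressed in tubules too. The basement membrane and its receptors (12 of 12) had a median of 0.29, with *Itgb1* at 0.47, *Agrn* at 0.51 and *Cd151* at -0.22. Both *Itgb1* and *Agrn* were highest in rFGF4 mouse 1, at 111 and 58.2 FPKM. The other treated mice had 42.1 to 67.6 and 15.2 to 23.4, and vehicle-treated mice 38.4 to 67.0 and 12.5 to 29.6. The podocyte-enriched surface and secreted genes (11 of 15) had a median of -0.099. With rFGF4 mouse 1 left out the medians of these 5 lists were 0.096, 0.060, 0.11, 0.15 and -0.14. Without vehicle mouse 5 they were 0.46, 0.20, 0.37, 0.36 and -0.13. In the last list, the growth factor gene *Vegfa* was at -0.10, the peptidase gene *Enpep* at 0.18 and the cell-cycle inhibitor gene *Cdkn1c*, a marker of mature podocytes, at 0.63 (standard error 0.28, exact permutation p = 0.114). *Cdkn1c* had 14.8 to 24.6 FPKM with rFGF4 and 8.69 to 18.5 with vehicle. *Vegfa* was at 27.1 FPKM in rFGF4 mouse 1, 38.4 to 47.0 in the other treated mice and 34.4 to 48.8 with vehicle. The count of the 51 genes at an unadjusted p under 0.05 was 11 without rFGF4 mouse 5, of which 8 were higher, and 6 without vehicle mouse 5, of which 4 were higher. In the same fits the share of all genes rose as well, from 4.62% to 9.44% and 6.51%.

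**Figure D5:**
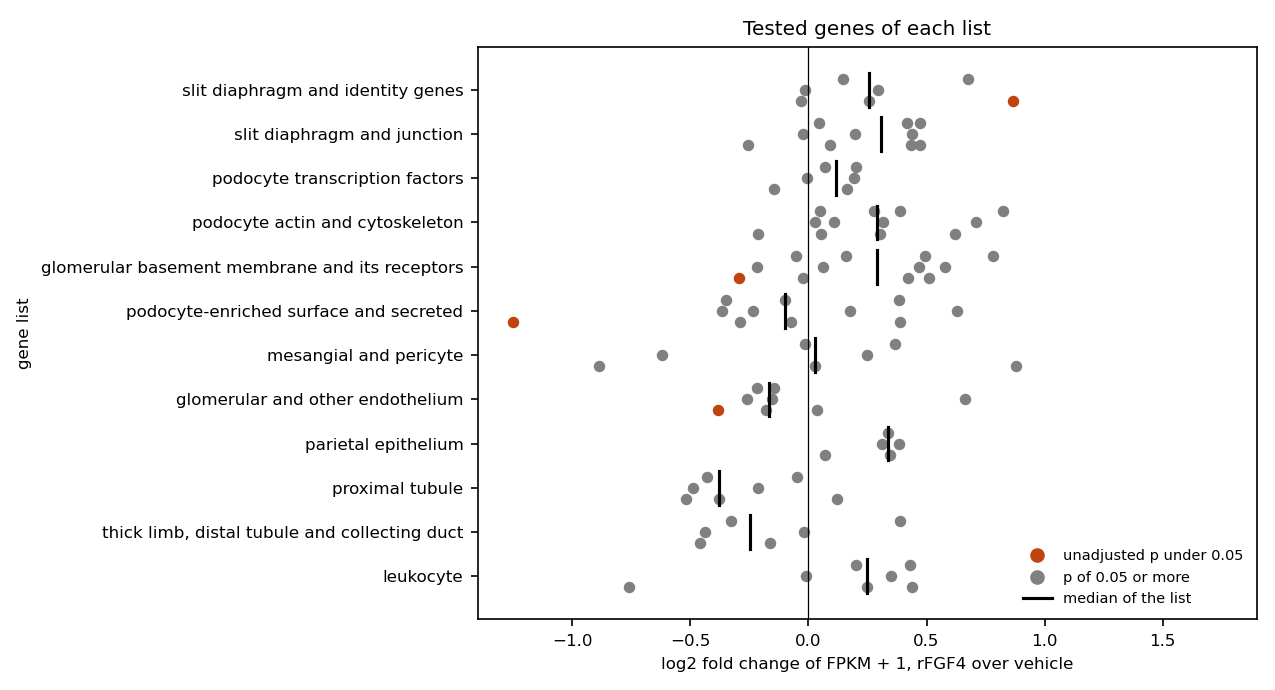
Log2 fold change of FPKM + 1 (rFGF4 over vehicle) of every tested gene in the podocyte lists and in lists of other kidney cells, with the median of each list as a bar. Points in orange had an unadjusted limma p under 0.05, namely *Synpo* above 0 and *Npnt*, *Ildr2* and *Tek* below 0.

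Cells that share the sample were followed by their markers. Of 7 mesangial and pericyte genes, 8 endothelial genes, 5 parietal epithelial genes, 7 proximal tubule genes, 6 genes of the distal nephron and 7 tested leukocyte genes, *Tek*, an endothelial receptor, was the single gene with an unadjusted p under 0.05 (log2 fold change -0.38, standard error 0.16, exact permutation p = 0.0857). The medians of these lists were 0.026, -0.17, 0.34, -0.38, -0.25 and 0.25. Without vehicle mouse 5 those of the mesangial and leukocyte lists were 0.36 and 0.94, with 4 of 7 and 7 of 7 genes above 0, and that of the distal nephron was -0.40. Parietal epithelial genes were above 0 in 5 of 5 and proximal tubule genes in 1 of 7, beside 67.1% of all genes. rFGF4 mouse 1 carried both patterns, with the highest level of all 5 parietal and the lowest of all 7 proximal tubule genes among the 8 mice. Without it the medians were 0.032 and 0.12, with 3 of 5 and 5 of 7 genes above 0, and those of the distal nephron and leukocyte lists were 0.092 and -0.35. This mouse also had the highest level of 5 of the 8 podocyte genes and the lowest of none. Without both rFGF4 mouse 1 and vehicle mouse 5 the 6 medians were 0.11, -0.077, 0.13, -0.035, -0.039 and 0.49, in the order of the lists above. The most abundant gene of each list was *Ren1*, *Plat*, *Cd24a*, *Slc34a1*, *Umod* and *Igkc*, with log2 fold changes of -0.89, 0.66, 0.38, -0.49, 0.39 and 0.20. With rFGF4 mouse 1 left out these were -0.44, 0.42, 0.058, 0.065, 0.49 and -0.58, where *Umod* passed an unadjusted limma p of 0.05 and *Tek*, at -0.32, no longer did. Without both mice *Plat*, at 0.66, passed it. The summed FPKM of the 8 podocyte genes was 55.6 to 90.1 with rFGF4 and 41.9 to 69.5 with vehicle. That of the proximal tubule list was 370 to 1509 and 950 to 1687, and that of the endothelial list 42.4 to 60.2 and 41.7 to 66.8. The leukocyte sum was 140 to 3500 FPKM with rFGF4 and 61.8 to 23730 with vehicle, the latter set by the immunoglobulin gene *Igkc* in vehicle mouse 5. The part of these cells in the podocyte values was not tested.

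Genes with a like pattern were sought among the tested genes that are not of the 8, by Pearson's r over the 8 libraries. The mean of the standardised levels of the 7 tested podocyte genes was matched most closely by *Ddx49*, *Necap2*, *Utp23*, *Eml4* and *Arid5b*, with r from 0.990 to 0.995. These are not podocyte genes by any list used here, and 28.1% of the 15143 genes compared had an r above 0.8 with this mean, so the pattern was a common one in these libraries. *Nphs1* alone was matched most closely by *Gm12091* (r = 0.99), *Rpl17-ps8*, *Shisa5*, *Sgsm3* and *Lats2* (r from 0.96 to 0.97), and 7.12% of the genes had an r above 0.8 with it. *Rpl17-ps8* is a pseudogene that can share reads with its parent gene, so its level is uncertain.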

How the data were processed

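Kidney RNA of 8 mice was sequenced as paired ends after selection of polyadenylated RNA. The deposited values are FPKM per gene, which the authors calculated with StringTie after assembling each library and merging the transcripts with gffcompare. Per the labels, the tools were HISAT2 2.0, StringTie 1.3.0 and Bowtie 0.12.2 and the build mm8, whereas 99.5% of the gene identifiers are in GENCODE M21 on GRCm38, from which positions and transcript lengths were taken. The table lists 0.0001 where nothing was found. It also holds the authors' fold changes, p-values, q-values and gene annotation, which were not used. Since counts were not analysed here, the edgeR test of the study was replaced by limma 3.58.1 (R 4.3.3) on log2(FPKM + 1), with a prior variance that follows the mean level and p-values adjusted by Benjamini-Hochberg over 15150 genes. Single genes were compared by two-sided exact permutation of the 70 arrangements, with scipy 1.17.1. Depth was read from the FPKM times length of 1 fragment in genes of 1 transcript.

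The 8 genes and the marker lists were chosen with earlier results of these data known. Named genes were the 8, the 3 most abundant genes of each podocyte list and the most abundant of each other list, all list genes at an unadjusted p under 0.05, and the 5 most alike in pattern. *Kirrel2*, *Trpc6* and the cell-type totals were added after their values were seen. Samples were grouped by their titles. The procedure was tested on simulated data. Alternatives were another pseudocount, other filters, other scalings, a block for mouse numbers and leaving out mice. The limma p-values set a group difference against the spread between mice of a group. Exact permutation p-values count arrangements or, for correlations, pairings of these mice. The results of 2 further podocyte genes are not reported here, and they were left out of the lists.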

Additional observations from a re-analysis of the deposited data

Results flagged for a closer look

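Outliers were sought in 64 groups of 4 mice (32 named genes in each treatment group). *Kirrel2*, *Trpc6* and the genes of like pattern were not among the 32. Of the groups, 3 held a mouse that passed Dixon's 95% critical value for 4 values. Its gap to its nearest neighbour took more of the group's range on the log2(FPKM + 1) scale than this value allows. Chance flags about 1 in 20 groups, or 3.2 here. All 3 were vehicle mouse 5. *Wt1* was at 1.0 FPKM in this mouse, and the 3 others of its group lay between 0.427 and 0.511, a gap of 0.830 of the range. *Tjp1* was at 7.50 FPKM against 4.01 to 4.44 (0.845 of the range), and *Tcf21* at 23.8 FPKM against 3.95 to 4.88 (0.893 of the range).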

How the results depend on the processing

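*Synpo* was higher in rFGF4-treated mice under all 16 alternatives (log2 fold change 0.69 to 1.17) and lost an unadjusted p of 0.05 in 4 of them, 3 that left out a mouse and the comparison relative to *Nphs1* and *Podxl*, which used an exact permutation test. *Nphs1*, *Podxl*, *Ptpro* and *Wt1* also stayed above 0 in every alternative, but their sizes moved, from 0.11 to 0.41, 0.12 to 0.41, 0.36 to 0.93 and 0.013 to 0.32, and *Ptpro* passed in 2. Without rFGF4 mouse 1, a comparison added later for the other kidney cells, *Slc34a1* turned to 0.065 and *Igkc* to -0.58 (-0.046 and 1.29 without vehicle mouse 5 as well). *Cd2ap* and *Magi2* turned above 0 without mitochondrial transcripts (0.068 and 0.0081), without rFGF4 mouse 5 (0.046 and 0.034) and without vehicle mouse 5 (0.097 and 0.053), *Cd2ap* also without rFGF4 mouse 3 and *Magi2* without rFGF4 mouse 2 (0.015). With a mouse left out, *Cd2ap* ran from -0.40 to 0.52 and *Magi2* from -0.11 to 0.053. Relative to *Nphs1* and *Podxl*, without a pseudocount, they were at -0.45 and -0.41. The cause was not tested.

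Of the 7 tested genes of the 8, 0 to 2 passed with a mouse left out, against 1; the 0 was without rFGF4 mouse 2 or vehicle mouse 3 and the 2 without vehicle mouse 5. Of the wider podocyte genes, 1 to 11 passed with a mouse left out (1 without rFGF4 mouse 1, 2 or 3 or vehicle mouse 2 or 4, 11 without rFGF4 mouse 5, 6 without vehicle mouse 5) and 5 without rFGF4 mouse 1 and vehicle mouse 5 together, an alternative added later, against 2. At the same unadjusted p, 2.84% (without rFGF4 mouse 2) to 9.44% (without rFGF4 mouse 5) of all genes passed with a mouse left out, 6.51% without vehicle mouse 5 and 3.21% without vehicle mouse 3, against 4.62%, and 5.68% without rFGF4 mouse 1 and vehicle mouse 5. All genes past the study's threshold numbered 231, 348 with a pseudocount of 0.1, 0 by adjusted p and 187 to 575 with a mouse left out (575 without rFGF4 mouse 5, 432 without vehicle mouse 5). Of 28 pairs, 9 were correlated at an adjusted p under 0.05 in the exact permutation test, 0 with a common median ratio and 2 to 9 with a mouse left out.

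The mouse numbers 2, 3 and 5 occur in both groups but share no stated origin. Deviations from the group means correlated at -0.23, -0.16 and -0.39 within these pairs. With a replicate block for them, 262 genes passed the study's threshold, and at an unadjusted p under 0.05 alone 1 of the 7 tested genes (*Synpo*, 0.85) and 1 wider podocyte gene passed, beside 2.6% of all genes. With this block *Nphs1* was at 0.16, *Podxl* at 0.12, *Ptpro* at 0.36, *Wt1* at 0.013, *Cd2ap* at -0.47 and *Magi2* at -0.13. Below about 1 FPKM, counting error was at least 12.3% to 19.7% for *Wt1*, 9.06% to 15.5% for *Magi2* and 8.40% to 14.3% for *Plce1*. The SD between mice was larger than these lower bounds. With rFGF4 it was 34.1%, 39.6% and 38.7% of the mean, and with vehicle 43.9%, 35.6% and 22.0%.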
